A study of Mus musculus with 24 samples.

Results

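NK cells leave the bone marrow, circulate and enter inflamed tissue under the control of receptors that sense chemokines and sphingosine 1-phosphate. The results below describe the transcripts of 7 such receptors in splenic NK cells from mice with and without a transplanted T cell lymphoma. The chemokine receptor genes are Cxcr3, Cxcr6, Cxcr4, Ccr2 and Ccr7, and the sphingosine 1-phosphate receptor genes are S1pr1 and S1pr4. They were picked for their role in where lymphocytes go, with earlier results of these data known, and make up 7 of the 45237 genes in the deposited table. The genes are taken up by the signal they read, inflammatory chemokines before homing chemokines and sphingosine 1-phosphate last.

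The study injected RMA lymphoma cells, or RMA-KR cells, into the vein of young adult female C57BL/6J mice and sorted NK cells from the spleen at stages of tumor growth. RMA-KR is a single clone from limiting dilution that lacks B2m and carries a lentivirus for Rae1-β and ZsGreen, so it has lost MHC class I and gained a ligand of the activating receptor NKG2D. According to the paper, RMA cells express ZsGreen too. The 24 libraries are 4 from control mice without tumor and 3 in each tumor group, except RMA-KR intermediate with 5. The early groups were taken at day 2 with either tumor, the intermediate groups at day 4 for RMA and day 7 for RMA-KR, and the late groups at day 9 for RMA and day 14 for RMA-KR. A difference between the tumors at the intermediate or late stage is therefore also a difference in days since injection. All RMA-KR mice carry the same clone, so its genotype cannot be told apart from other properties of that clone.

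The libraries carry the transcripts of NK cells. All 14 NK cell defining markers examined passed the low-count filter, their summed level ran from 24700 to 44811 CPM (counts scaled to library size), and Gzma was the most abundant at a mean of 9982 CPM. Genes listed as markers of other cells had lower sums, from 2.69 to 56 CPM for B cell markers, 401 to 867 for plasma cell markers and 430 to 821 for T cell and lymphoma markers. Macrophage and monocyte markers summed to between 145 and 589 CPM with Ly6c2 the most abundant, and dendritic cell markers to between 422 and 1265 with Itgax the most abundant. Ly6c2 is also a marker of mature NK cells, and the share of other cells in the libraries was not measured. Granulocyte markers reached at most 17.2 CPM with Ly6g at 3 counts or fewer in every library, and red blood cell markers at most 5.75. The libraries held 5138651 to 14863500 counts in genes, with a median of 10489204, and Pearson r within groups lay between 0.81 and 0.964 over 31 pairs.

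A few libraries stand apart in their immediate early genes, and the levels of some receptors, Cxcr3 and Cxcr6 above all, differ in them. Immediate early genes such as Fos are switched on within minutes of handling or stimulation, and 22 of them passed the filter. Their mean level on the log2 CPM scale was 5.36 in control 4 and 5.43, 5.81 and 5.36 in RMA-KR intermediate 3, 4 and 5, against 6.52 to 7.67 in the other 20 libraries. Fos itself measured 83.9 CPM in control 4 and 88.3, 67.3 and 75.8 CPM in RMA-KR intermediate 3, 4 and 5, while RMA-KR intermediate 1 and 2 had 975 and 986 CPM. The same libraries held more Ltb, at 181 CPM in control 4 and 184, 322 and 215 CPM in RMA-KR intermediate 3, 4 and 5, where no other library exceeded 60.7 CPM. Il7r measured 65.5, 66.8, 133 and 80.6 CPM in these libraries, and markers of type 1 innate lymphoid cells (ILC1, without Cxcr6) summed to 182, 207, 321 and 221 CPM against 26.2 to 120 CPM elsewhere. Markers of immature NK cells summed to 1264, 1480, 1763 and 1650 CPM there and to 578 to 1100 CPM elsewhere. Markers of mature NK cells summed to 9174, 7387, 7429 and 6524 CPM there and to 11081 to 21514 CPM elsewhere. Genes detected numbered 27820, 24676, 26285 and 24621 in these libraries and 15263 to 24234 in the others. Handling, cell makeup and cell state cannot be told apart for these libraries, and their part in the results was not tested. Fold changes that rest on them are also given without them where stated. Group means and the correlations between genes are given over all libraries only.

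**Figure D1:**
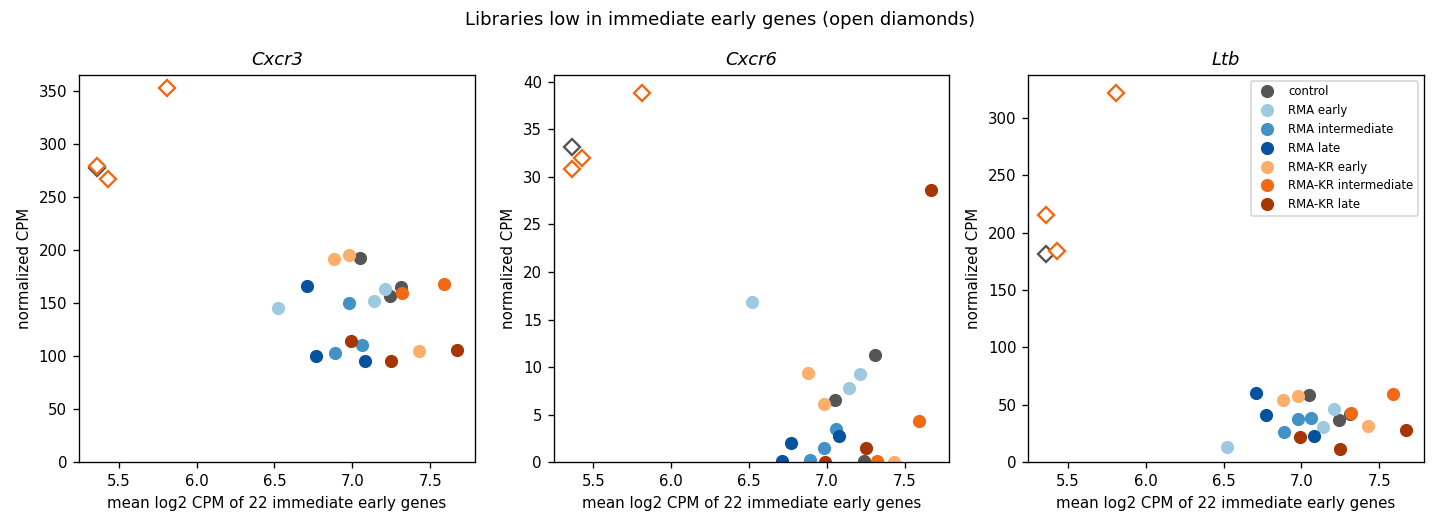
Normalized CPM of Cxcr3, Cxcr6 and Ltb (vertical axes) against the mean log2 CPM of 22 immediate early genes (horizontal axis), one symbol per library, colored by group. The open diamonds at 5.36 to 5.81, control 4 and RMA-KR intermediate 3, 4 and 5, lie apart on the left with the highest Ltb, from 181 to 322 CPM.

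All 7 receptor genes passed the filter that left 17097 genes for testing, but their abundance spans a wide range. Per kilobase of transcript the mean level was 373 CPM for Ccr2, 177 for S1pr4, 96.4 for Cxcr3, 17.8 for S1pr1, 15 for Cxcr4, 5.42 for Cxcr6 and 1.26 for Ccr7. Ccr2 lay at the percentile 97.7 of the tested genes and S1pr4 at 94, while Cxcr6 lay at 49.2 and Ccr7 at 34.6. In counts, Ccr2 ran from 6005 to 21782 per library and S1pr4 from 2230 to 6150, so these genes carry little counting noise. Ccr7 ran from 0 to 114 counts and Cxcr6 from 0 to 372, and libraries of the same group could differ widely. Cxcr6 had 17, 0 and 297 counts in RMA-KR late, and Ccr7 had 65, 0 and 0 counts in RMA early.

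**Figure D2:**
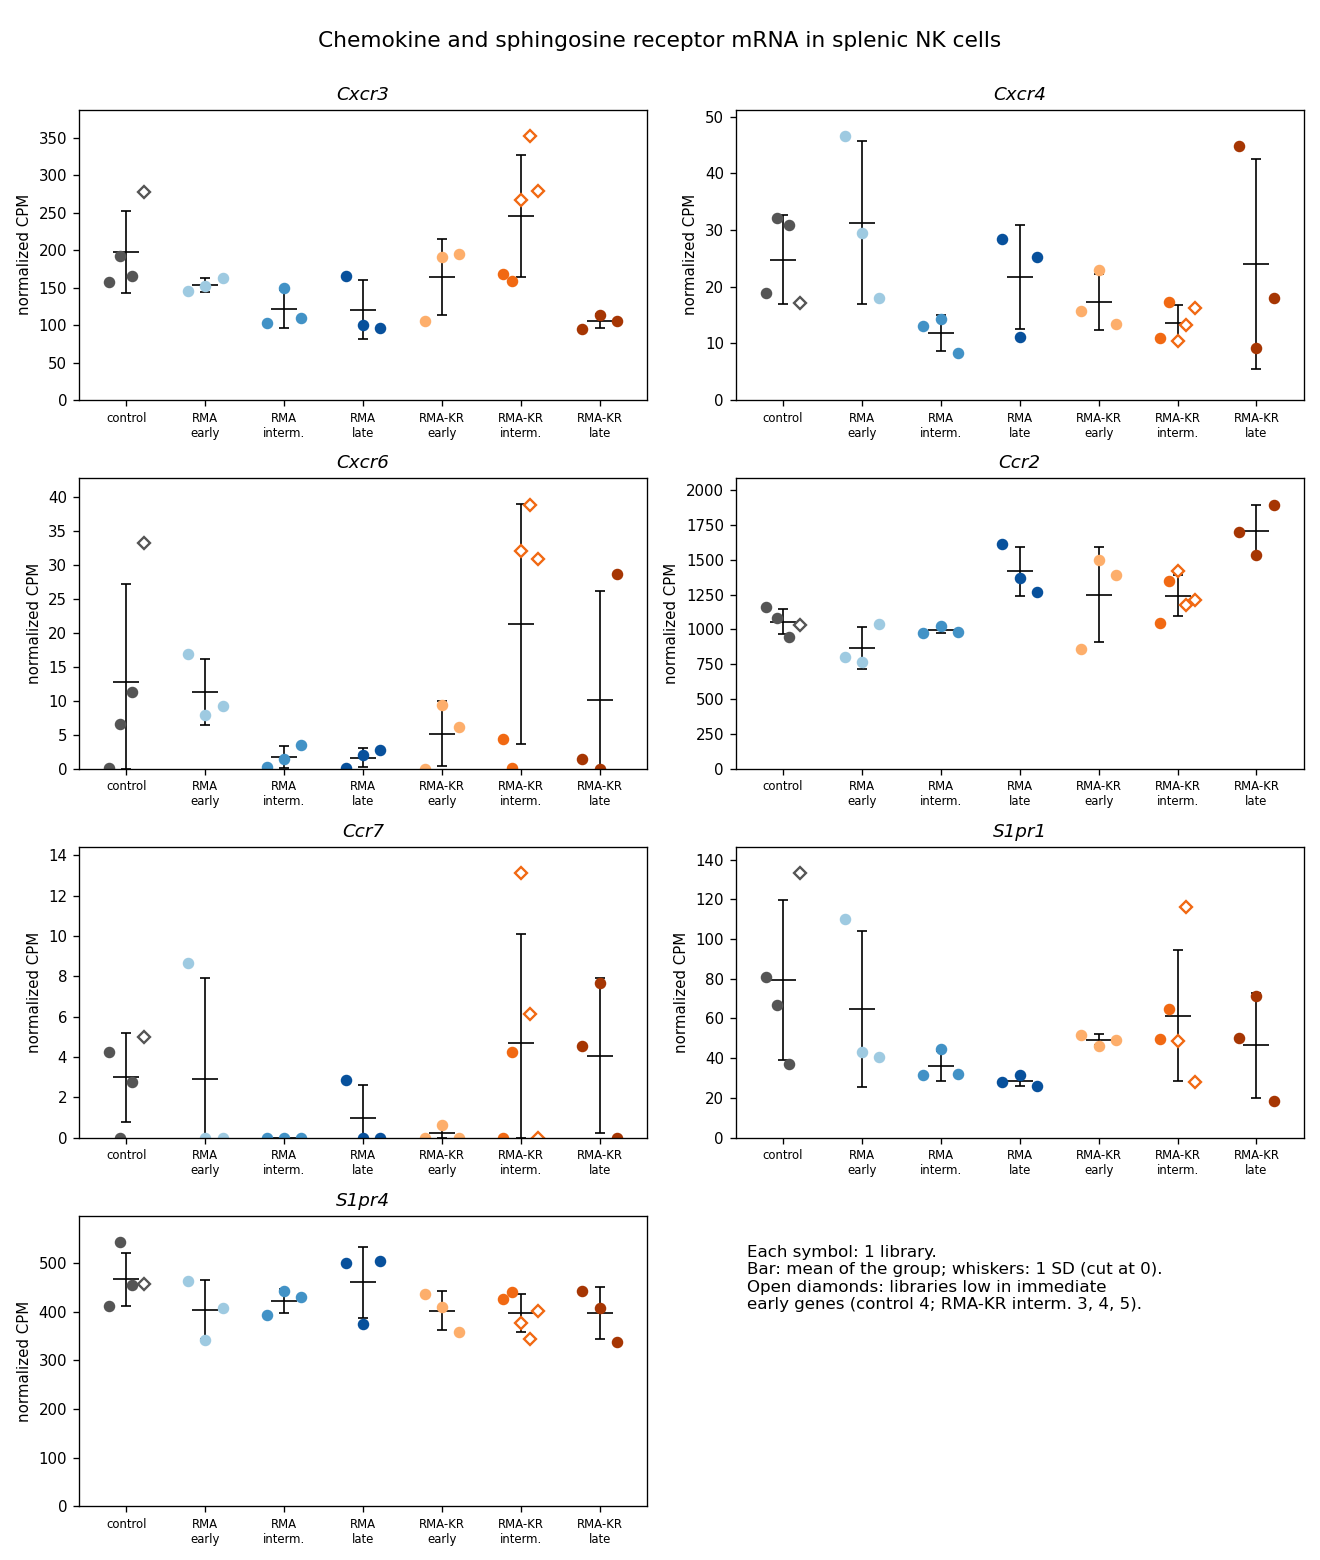
Normalized CPM of the 7 receptor genes in the 24 libraries, one panel per gene and one symbol per library, with the group mean as a bar, 1 SD as whiskers and open diamonds for libraries low in immediate early genes. Ccr2 is highest in RMA-KR late with a mean of 1709 CPM. Cxcr6 is at 0 in 2 libraries and Ccr7 in 13, among them all of RMA intermediate.

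Cxcr3 encodes the receptor for the interferon-induced chemokines CXCL9, CXCL10 and CXCL11, which draw NK cells and activated T cells into inflamed tissue. In the mouse spleen CXCR3 is carried mostly by less mature NK cells and is lost as the cells mature. Its locus is on chromosome X at 101731535-101734269, on the minus strand, with 2 exons. Cxcr3 measured 157, 192, 165 and 277 CPM in controls 1 to 4, 145, 152 and 163 CPM in RMA early, and 105, 191 and 195 CPM in RMA-KR early. At the intermediate stage the RMA libraries held 103, 150 and 110 CPM of Cxcr3 and the RMA-KR libraries 168, 159, 267, 352 and 279 CPM. Late libraries had 166, 99.9 and 95.6 CPM with RMA and 95.4, 114 and 106 CPM with RMA-KR. The 4 highest Cxcr3 values, from 267 to 352 CPM, all fall in the libraries low in immediate early genes, that is control 4 and RMA-KR intermediate 3, 4 and 5. Group means of Cxcr3 ran from 245 CPM (SD 81.2) in RMA-KR intermediate over 198 (SD 54.8) in control, 163 in RMA-KR early, 154 in RMA early and 121 in both RMA intermediate and RMA late to 105 (SD 9.3) in RMA-KR late. Each group overlapped with the next in this order.

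The genes most similar to Cxcr3 across the 24 libraries were Ltb, Cd160 and Cxxc5, with Pearson r of 0.885, 0.822 and 0.8 among 8372 genes. Promoters of 300 bases, from RefSeq on GRCm38.p6, were matched to 5 of the 7 receptor genes, and Ccr7 and S1pr1 had none. The motif CACCC, the core of sites for Klf family factors, occurs on either strand in 57.5% of the 32851 promoters in that table, CACCTG, bound by Zeb and E-box factors, in 20.2%, and GGTGTGA, bound by T-box factors, in 3.98%. The Cxcr3 promoter at X:101734098-101734397, minus strand, holds 1 CACCTG, shown in capitals, and none of the others. A match is a description of the sequence and no binding was measured. Each of the 5 promoter windows reaches into its gene at the position given here, and those of Cxcr3 and Ccr2 lie mostly inside it.

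Cxcr3: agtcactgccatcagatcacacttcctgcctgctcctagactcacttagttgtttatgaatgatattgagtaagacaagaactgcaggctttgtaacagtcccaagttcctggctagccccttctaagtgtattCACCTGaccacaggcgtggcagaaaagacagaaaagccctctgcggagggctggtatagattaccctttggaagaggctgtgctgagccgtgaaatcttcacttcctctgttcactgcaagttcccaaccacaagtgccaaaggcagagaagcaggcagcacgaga

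Cxcr6 encodes the receptor for the membrane-bound chemokine CXCL16, which retains lymphocytes in liver sinusoids and other tissues. It is a common mark of tissue-resident NK cells and of ILC1. The gene lies on chromosome 9 at 123806475-123811760, on the plus strand, with 2 exons of which 1 is coding. It sits inside Fyco1, which runs on the opposite strand, and the exons of Cxcr6 and Fyco1 share 0 bases. Control libraries 1 to 4 held 0.185, 6.56, 11.3 and 33.2 CPM of Cxcr6, RMA early 16.9, 7.84 and 9.25 CPM and RMA-KR early 0, 9.42 and 6.12 CPM. RMA intermediate had 0.265, 1.47 and 3.55 CPM of Cxcr6 and RMA-KR intermediate 4.37, 0.18, 32, 38.8 and 30.8 CPM. Late libraries held 0.086, 2.05 and 2.73 CPM with RMA and 1.51, 0 and 28.6 CPM with RMA-KR. Cxcr6 was thus high in the same libraries as Cxcr3, those low in immediate early genes, and in RMA-KR late 3, whose immediate early level of 7.67 is the highest of all and whose ILC1 markers summed to 71.5 CPM. Group means ran from 21.2 CPM in RMA-KR intermediate through 12.8 in control, 11.3 in RMA early, 10 in RMA-KR late, 5.18 in RMA-KR early and 1.76 in RMA intermediate to 1.62 in RMA late, and every neighbouring pair overlapped. Fewer Cxcr6-bearing cells and less Cxcr6 RNA per cell cannot be told apart in bulk libraries, and this holds for every receptor below.

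Mbd5, Mob3c and Gtpbp8 were the genes most similar to Cxcr6, with Pearson r of 0.743, 0.731 and 0.718. The Cxcr6 promoter at 9:123806227-123806526, plus strand, holds none of the motifs searched.

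Cxcr6: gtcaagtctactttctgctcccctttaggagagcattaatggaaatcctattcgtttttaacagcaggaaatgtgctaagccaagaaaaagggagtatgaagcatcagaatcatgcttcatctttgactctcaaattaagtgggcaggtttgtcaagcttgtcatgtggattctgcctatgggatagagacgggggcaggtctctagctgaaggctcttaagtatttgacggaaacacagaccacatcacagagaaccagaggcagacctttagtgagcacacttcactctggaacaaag

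Ccr2 encodes the receptor for CCL2 and related chemokines, best known for calling monocytes out of the bone marrow. NK cells carry it as well, and it helps them to leave the marrow and to reach inflamed sites. Ccr2 lies on chromosome 9 at 124101950-124113557, on the plus strand, with 2 exons of which 1 is coding. Of its 6758 windows of 50 bases, 129 or 1.91% also occur in another gene, so few of its reads could be shared. Ccr2 measured 1162, 1083, 946 and 1035 CPM in the controls, 801, 764 and 1041 CPM in RMA early and 859, 1495 and 1389 CPM in RMA-KR early. RMA intermediate had 978, 1023 and 985 CPM of Ccr2 and RMA-KR intermediate 1049, 1351, 1420, 1175 and 1213 CPM. Late in tumor growth Ccr2 measured 1612, 1368 and 1272 CPM with RMA and 1702, 1531 and 1895 CPM with RMA-KR. Every late library lay above every control library. Group means ran from 1709 CPM (SD 182) in RMA-KR late through 1417 in RMA late, 1248 in RMA-KR early, 1242 in RMA-KR intermediate, 1057 (SD 90.2) in control and 995 in RMA intermediate to 868 in RMA early, and each group overlapped with the next.

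Atp8b4, Nop53 and Gm17745 followed Ccr2 most closely, with Pearson r of 0.853, 0.822 and 0.812. Beside Ccr2, the 6 macrophage and monocyte markers that could be tested had a median of 0.42 in RMA late and -1.36 in RMA-KR late against control, where all genes had -0.18 and -0.17, and 0 were called higher and 1 lower in each. Ly6c2, the most abundant of them and also a marker of mature NK cells, measured 176, 279 and 154 CPM in RMA late and 76.4, 147 and 107 CPM in RMA-KR late against 341, 472, 570 and 406 CPM in control. Their part in the Ccr2 result was not tested. The Ccr2 promoter at 9:124101933-124102232, plus strand, holds none of the motifs searched. Since the gene starts at 124101950, this says little about the sequence upstream of it.

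Ccr2: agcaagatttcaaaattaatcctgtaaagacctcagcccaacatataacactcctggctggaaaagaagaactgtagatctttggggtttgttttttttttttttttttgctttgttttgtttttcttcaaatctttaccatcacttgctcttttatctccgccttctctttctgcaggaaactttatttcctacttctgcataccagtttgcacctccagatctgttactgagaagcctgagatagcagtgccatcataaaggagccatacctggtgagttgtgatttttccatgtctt

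Cxcr4 encodes the receptor for CXCL12, the chemokine that keeps developing and resting lymphocytes in the bone marrow. NK cells lower CXCR4 as they mature and enter the blood. Cxcr4 lies on chromosome 1 at 128588199-128592293, on the minus strand, with 2 exons, and its promoter at 1:128592250-128592549 holds 1 CACCC. Cxcr4 measured 18.9, 32.1, 30.9 and 17.2 CPM in control, 46.6, 29.4 and 18 CPM in RMA early and 15.7, 22.9 and 13.4 CPM in RMA-KR early. The intermediate libraries held 13.1, 14.3 and 8.25 CPM of Cxcr4 with RMA and 10.9, 17.3, 10.4, 13.3 and 16.3 CPM with RMA-KR. Late libraries had 28.5, 11.2 and 25.3 CPM with RMA and 44.9, 9.21 and 18 CPM with RMA-KR. Cxcr4 was lowest at the intermediate stage with either tumor, at means of 11.9 CPM with RMA and 13.6 with RMA-KR. The other means were 31.3 CPM in RMA early, 24.8 in control, 24 in RMA-KR late, 21.7 in RMA late and 17.3 in RMA-KR early, and neighbouring groups all overlapped. Rnf125, Birc2 and Etfbkmt were most similar to Cxcr4, with Pearson r of 0.747, 0.709 and 0.68.

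Ccr7 encodes the receptor for CCL19 and CCL21, which guide cells into lymph nodes and the T cell zone of the spleen. Few mouse NK cells carry it at rest. The gene lies on chromosome 11 at 99144196-99155077, on the minus strand, with 3 exons. Ccr7 was at 0 in 13 of the 24 libraries. It measured 4.25, 0, 2.74 and 5 CPM in control, 8.67, 0 and 0 CPM in RMA early and 0, 0.613 and 0 CPM in RMA-KR early. All 3 RMA intermediate libraries were at 0, and RMA-KR intermediate held 0, 4.23, 13.1, 6.14 and 0 CPM. Late libraries had 2.84, 0 and 0 CPM of Ccr7 with RMA and 4.54, 7.66 and 0 CPM with RMA-KR. Means ran from 4.69 CPM in RMA-KR intermediate through 4.07 in RMA-KR late, 3 in control, 2.89 in RMA early, 0.946 in RMA late and 0.204 in RMA-KR early to 0 in RMA intermediate, with overlap between all neighbours. The gene most similar to Ccr7 was S1pr1, with Pearson r of 0.608 among 8373 genes, followed by St8sia4 at 0.605 and Lyrm9 at 0.574.

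S1pr1 encodes the receptor that reads the high sphingosine 1-phosphate of blood and lymph and lets T and B cells leave lymphoid organs. The CD69 protein pulls this receptor from the cell surface, and the factor encoded by Klf2 switches S1pr1 on. The gene lies on chromosome 3 at 115710433-115715072, on the minus strand, with 2 exons of which 1 is coding. S1pr1 measured 80.6, 66.6, 36.9 and 133 CPM in control, 110, 43.2 and 40.5 CPM in RMA early and 51.8, 46.3 and 49.3 CPM in RMA-KR early. RMA intermediate had 31.5, 44.8 and 32.2 CPM of S1pr1 and RMA-KR intermediate 49.7, 64.6, 48.6, 116 and 28.1 CPM. At the late stage S1pr1 measured 28.2, 31.7 and 26 CPM with RMA and 49.9, 71.1 and 18.4 CPM with RMA-KR. Control 4 had the most S1pr1 of all libraries, and the libraries of RMA late lay below every control library. Means followed the order control at 79.2 CPM (SD 40.1), RMA early at 64.5, RMA-KR intermediate at 61.4, RMA-KR early at 49.2, RMA-KR late at 46.5, RMA intermediate at 36.2 and RMA late at 28.6 (SD 2.91), and each group overlapped with the next. Vps72, Dhx30 and Ccdc93 were most similar to S1pr1, with Pearson r of 0.802, 0.756 and 0.752.

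S1pr4 encodes a further sphingosine 1-phosphate receptor, largely confined to blood cells, with a less settled role in migration. S1pr4 lies on chromosome 10 at 81497747-81500132, on the minus strand, in 1 exon, and its promoter at 10:81500088-81500387 holds 1 CACCTG and 1 CACCC on the opposite strand. S1pr4 shares 29 of 2337 windows, or 1.24%, with Supt7l, while the 5 receptor genes other than S1pr4 and Ccr2 share 0 with any gene. S1pr4 measured 412, 543, 454 and 456 CPM in control, 463, 342 and 408 CPM in RMA early and 437, 410 and 359 CPM in RMA-KR early. RMA intermediate had 394, 442 and 430 CPM of S1pr4 and RMA-KR intermediate 427, 441, 376, 344 and 401 CPM. Late libraries had 500, 375 and 505 CPM with RMA and 443, 408 and 338 CPM with RMA-KR. S1pr4 was the steadiest of the 7 genes, with group means between 396 and 466 CPM and overlap between all groups next to each other. Pdcl, Scarb2 and Zfp958 were most similar to S1pr4, with Pearson r of 0.68, 0.656 and 0.63.

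Day 2 is the earliest time after injection, and the count table holds no measure of tumor load. No receptor of NK cells from mice with RMA at day 2 differed from control by the test, and whether the groups are alike was not tested. Cxcr3 was a little lower and Ccr2 was also lower, and neither passed the test. The quasi-likelihood test of edgeR, adjusted by the Benjamini-Hochberg (BH) method, called 0 of the 7 receptor genes for RMA early against control, with 0 at unadjusted p < 0.05 and 0 by DESeq2, where 0% of all tested genes were called and 0% passed the adjusted p alone. The median log2 fold change of the receptors was -0.21 beside -0.06 for all genes, and 0 of 7 receptors and 1206 of 17097 genes had no overlap between the groups. Cxcr3 had a log2 fold change of -0.36 (SE 0.28, p 0.199) and Ccr2 of -0.28 (SE 0.16). Without the libraries low in immediate early genes Cxcr3 was at -0.11 and Cxcr6 went from -0.18 (SE 1.55) to 0.97 (SE 1.77).

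RMA-KR at the same day offers NK cells a target that lacks MHC class I and carries a ligand of NKG2D. Such a target can set off killing at once. None of the receptor transcripts passed the test. Ccr7 was nearly absent, but it was at 0 in 13 of all 24 libraries, some of them in control and in other tumor groups. For RMA-KR early against control the edgeR test called 0 of 7, with 0 at unadjusted p < 0.05 and 0 by DESeq2, against 0.0819% of all tested genes called and 0.0994% past the adjusted p alone. For the receptors the median was -0.51 and the median of all genes 0.0034, and 0 of 7 receptors and 1797 genes lacked overlap. S1pr1 stood at -0.69 (SE 0.47, p 0.154), or -0.29 without the libraries low in immediate early genes, and Cxcr4 at -0.51 (SE 0.48). Ccr7, with a single RMA-KR early library above 0, stood at -3.78 (SE 2.61). The RMA-KR early group shares the 4 control libraries with every other tumor group set against control.

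The tumors can be compared at this day without a difference in time. Ccr2 was higher with RMA-KR in 2 of its 3 libraries, and Cxcr4 was higher with RMA in 2 of its 3. For RMA early against RMA-KR early the edgeR test called 0 of 7 receptors, with 1 at unadjusted p < 0.05 and 0 by DESeq2, against 0.304% of all tested genes called and 0.339% past the adjusted p alone. That gene was Ccr2, at -0.52 (SE 0.17, p 0.00577, adjusted p 0.252). Cxcr4 stood at 0.85 (SE 0.51, adjusted p 0.51) and S1pr1 at 0.39 (SE 0.49). The median of the 7 was 0.39 beside -0.03 for all genes, and 0 of 7 receptors and 2183 genes had no overlap.

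At day 4 with RMA the NK cells held less Cxcr3, Cxcr4 and S1pr1 RNA than control cells by their group means, and no Ccr7 read was found. Ccr2 and S1pr4 overlapped with control, at log2 fold changes of -0.09 and -0.14, and whether they are alike was not tested. CXCR3 draws cells into inflamed tissue, CXCR4 holds them in the marrow and S1PR1 lets them leave lymphoid organs. For RMA intermediate against control the edgeR test nevertheless called 0 of 7, with 4 at unadjusted p < 0.05 and 0 by DESeq2, where 1.65% of all tested genes were called and 2.35% passed the adjusted p alone. The receptor median of -1.06 lay below the median of -0.29 for all genes, and 2 of 7 receptors, Cxcr3 and Cxcr4, and 3539 genes had no overlap. Cxcr3 stood at -0.71 (SE 0.28, p 0.0181, adjusted p 0.236), Cxcr4 at -1.06 (SE 0.49, p 0.0422, adjusted p 0.3) and S1pr1 at -1.13 (SE 0.47, p 0.0258, adjusted p 0.268). Ccr7 was at least 9.96-fold lower by the mean of the control libraries, taking 3 counts as the least that can be told from 0. Control 2 was at 0 too, so the groups overlapped. The bound was 7.74-fold without control 4, and the adjusted p of Ccr7 ran from 0.0193 to 0.834 over the alternatives. Cxcr6 stood at -2.87 (SE 1.74), with a large error. Without the libraries low in immediate early genes the values were -0.49 for Cxcr3, -1.19 for Cxcr4, -0.76 for S1pr1 and -1.75 for Cxcr6.

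RMA-KR at day 7 gave another picture by its means, and that picture depends on 3 of 5 libraries. In RMA-KR intermediate 1 and 2 Cxcr3 and Cxcr6 were within the control range or below it, and in RMA-KR intermediate 3, 4 and 5 Cxcr3 and Cxcr6 were near or above the levels of control 4. Cxcr4 did not exceed 17.3 CPM in any of the 5. For RMA-KR intermediate against control the edgeR test called 0 of 7, with 0 at unadjusted p < 0.05 and 0 by DESeq2, where 0.0175% of all tested genes were called and 0.0175% passed the adjusted p alone. Across the 7 receptors the median was 0.23 beside 0.01 for all genes, and 0 of 7 receptors and 449 genes lacked overlap. Cxcr3 stood at 0.31 (SE 0.24) and turned to -0.05 (SE 0.26) without the low libraries, and Cxcr6 turned from 0.72 (SE 1.37) to -1.37 (SE 2.06). Cxcr4 stood at -0.86 (SE 0.42, p 0.0517, adjusted p 0.852) and at -0.93 (SE 0.63) without them.

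Set against each other, the intermediate groups gave the smallest p among these genes for Cxcr3, while the sparse Ccr7 and Cxcr6 had larger fold changes with large errors. Every RMA library held less Cxcr3 than every RMA-KR library, and the same was true of Ccr2. CXCR3 draws NK cells into tissue and CXCR6 holds them there, and the values of both genes rest on the libraries that stand apart. For RMA intermediate against RMA-KR intermediate the edgeR test called 0 of 7, with 2 at unadjusted p < 0.05, where 0.503% of all tested genes were called and 0.643% passed the adjusted p alone. DESeq2 called 1, Cxcr3, at -1.06 with adjusted p 0.0148, and with its beta prior at -1.01 with 0.0145. In edgeR Cxcr3 stood at -1.02 (SE 0.27, p 0.00107, adjusted p 0.103), and the adjusted p ran from 0.0145 to 0.675 over the alternatives. Without control 4 and RMA-KR intermediate 3, 4 and 5 Cxcr3 stood at -0.44 (SE 0.26, adjusted p 0.675) and Cxcr6 went from -3.59 (SE 1.77, p 0.0546) to -0.38. Ccr7 was at least 15.6-fold lower in RMA intermediate by the mean of the RMA-KR libraries, 2 of which were at 0 too. That bound was 8.62-fold without RMA-KR intermediate 3 and 7.03-fold without all libraries low in immediate early genes. Ccr2 stood at -0.32 (SE 0.15, p 0.0508) and at -0.27 without the low libraries. The median of the receptors was -0.76 beside -0.23 for all genes, and 2 of 7 receptors, Cxcr3 and Ccr2, and 1570 genes had no overlap. Beside Cxcr3, the 11 immature NK cell markers had a median of -1.04, and of these DESeq2 called Kit, Ltb and Tcf7 lower and edgeR called 0. In RMA-KR intermediate 1 to 5 Kit measured 64.5, 75.6, 232, 228 and 266 CPM and Tcf7 46.5, 55.7, 140, 117 and 164 CPM. With RMA Kit measured 22.8, 53.2 and 43.7 CPM and Tcf7 28.8, 27.2 and 31.1 CPM. The medians of the marker lists are given over all libraries only. Medians were -2.39 for 8 ILC1 markers, Cxcr6 among them, and -2.58 for 10 dendritic cell markers, Ccr7 among them. For 9 B cell markers the median was -2.95. In these lists edgeR called 1 dendritic cell marker higher and 0 lower. Without Ccr7, dendritic cell markers summed to 892, 1008 and 1016 CPM with RMA and 671, 550, 987, 913 and 1265 CPM with RMA-KR. B cell markers summed to 13.8, 8.93 and 3.67 CPM with RMA and 6.25, 17.8, 52, 56 and 37.3 CPM with RMA-KR. Mature NK cell markers stood at 0.48 and plasma cell markers at 0.75. The part of these markers in the Cxcr3 and Cxcr6 results was not tested. The groups also differ by 3 days since injection.

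At day 9 with RMA the NK cells combined more Ccr2 with less S1pr1 than control cells in every library. S1PR1 is one of several receptors by which cells answer to sphingosine 1-phosphate, while CCR2 answers to chemokines made in inflammation. Cxcr3 was lower in 2 of 3 libraries. For RMA late against control the edgeR test called 0 of 7, with 3 at unadjusted p < 0.05, where 1.79% of all tested genes were called and 2.66% passed the adjusted p alone. DESeq2 called 1, S1pr1, at -1.48 with adjusted p 0.0292, and with its beta prior at -1.28 with 0.031. In edgeR S1pr1 stood at -1.47 (SE 0.48, p 0.00561, adjusted p 0.119), and the adjusted p ran from 0.0159 to 0.444 over the alternatives. Control 4 holds the highest S1pr1 value, and without the libraries low in immediate early genes the S1pr1 value was -1.09 (SE 0.43, adjusted p 0.306). Ccr2 stood at 0.42 (SE 0.16, p 0.0141, adjusted p 0.202), Cxcr3 at -0.71 (SE 0.28, p 0.0173, adjusted p 0.225) and Cxcr6 at -2.98 (SE 1.75). Without the low libraries Ccr2 kept 0.42, Cxcr3 went to -0.50 and Cxcr6 to -1.88. The receptor median was -0.71 beside -0.18 for all genes, and 2 of 7 receptors, S1pr1 and Ccr2, and 3086 genes had no overlap.

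**Figure D3:**
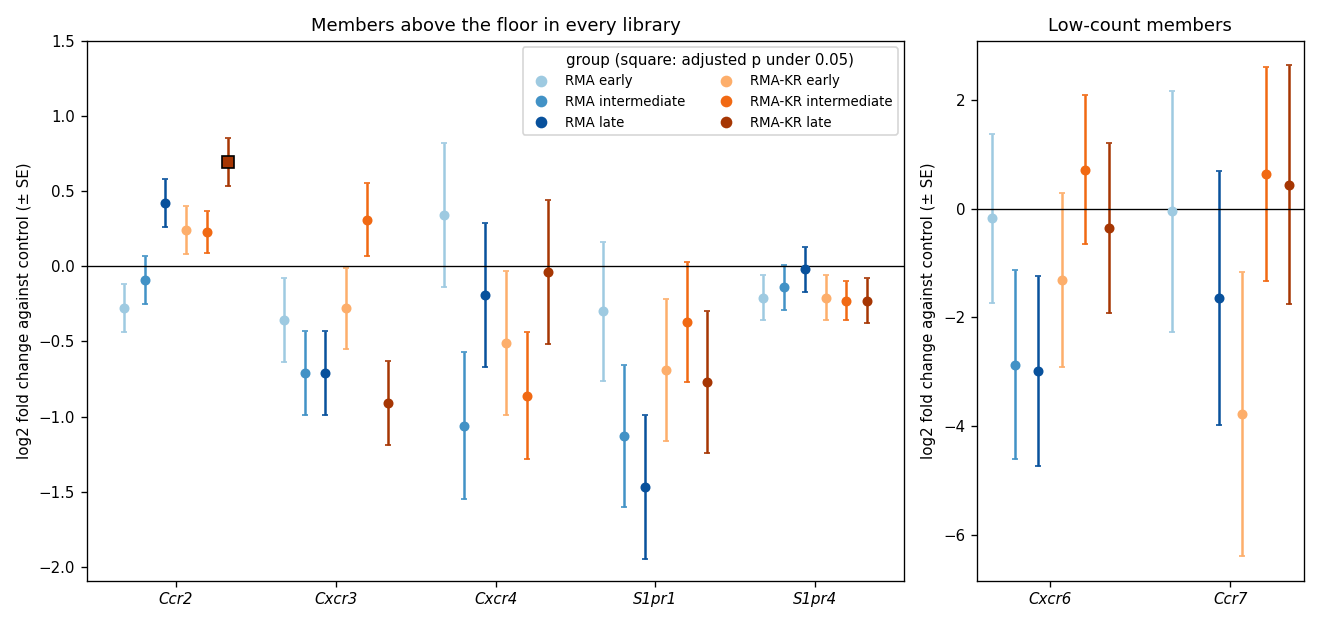
Log2 fold changes of the receptor genes in the 6 tumor groups against control from edgeR, with points at the estimate, bars of 1 SE and squares where the adjusted p is below 0.05. The square is Ccr2 in RMA-KR late at 0.69, the bars of Cxcr6 and Ccr7 are wide, and Ccr7 in RMA intermediate, at 0 in all libraries, is left out.

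Ccr2 rose with RMA-KR at day 14. This tumor lacks MHC class I and carries a ligand of NKG2D, and each of the 3 libraries held more Ccr2 than any control library. Their Cxcr3 lay below that of every control library, so Ccr2 was high where Cxcr3 was low. For RMA-KR late against control the edgeR test called 0 of 7 at a fold above 2, with 2 at unadjusted p < 0.05 and 0 by DESeq2, where 0.983% of all tested genes were called and 1.22% passed the adjusted p alone. Ccr2 was the 1 receptor past the adjusted p, at 0.69 (SE 0.16, p 0.00023, adjusted p 0.0277), which is less than a fold of 2. The adjusted p ran from 0.0027 to 0.106 over 16 alternatives and passed in 8, and DESeq2 gave 0.71 with 0.00442. It no longer passed without RMA-KR late 1 (adjusted p 0.101), RMA-KR late 3 (0.0952), control 2 (0.0798), control 3 (0.106) or control 4 (0.0913), and without all libraries low in immediate early genes it was 0.077 at a log2 fold change of 0.72. It also missed with only these groups in the fit (0.0617) and with a block for the replicate number (0.101). Beside Ccr2, the 22 immediate early genes had a median of 0.33 and edgeR called Egr1 higher, and their part in the result was not tested. Cxcr3 stood at -0.91 (SE 0.28, p 0.0035, adjusted p 0.136) and at -0.66 (SE 0.24) without the low libraries. For the receptors the median was -0.23 beside -0.17 for all genes, and 2 of 7 receptors, Cxcr3 and Ccr2, and 2327 genes had no overlap.

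No receptor differed between the late groups by the test, and whether the groups are alike was not tested. Ccr2 was high with either tumor and Cxcr3 mostly low, and S1pr1 was low in all RMA libraries but only in 1 of 3 with RMA-KR. For RMA late against RMA-KR late the edgeR test called 0 of 7, with 0 at unadjusted p < 0.05 and 0 by DESeq2, where 0% of all tested genes were called and 0% passed the adjusted p alone. S1pr1 stood at -0.70 (SE 0.50, adjusted p 0.735) and Ccr2 at -0.27 (SE 0.17, p 0.128, adjusted p 0.699). The largest values had large errors, -2.63 (SE 1.78, adjusted p 0.723) for Cxcr6, whose RMA-KR mean rests on RMA-KR late 3, and -2.08 (SE 2.47, adjusted p 0.874) for Ccr7. The median of the 7 was -0.27 beside 0.06 for all genes, and 0 of 7 receptors and 1561 genes had no overlap. The groups differ by 5 days since injection as well as by tumor.

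From day 2 to day 9 with RMA, Ccr2 rose in the NK cells. S1pr1 and Cxcr6 were lower in every late library than in every early library. For RMA late against RMA early the edgeR test called 0 of 7, with 2 at unadjusted p < 0.05 and 0 by DESeq2, where 2.01% of all tested genes were called and 2.87% passed the adjusted p alone. Ccr2 was the 1 receptor past the adjusted p, at 0.71 (SE 0.17, p 0.000437, adjusted p 0.0285), again below a fold of 2. The adjusted p ran from 0.00414 to 0.147 over 15 alternatives and passed in 9, and DESeq2 gave 0.63 with 0.017. It no longer passed without RMA early 1 (adjusted p 0.143), RMA early 2 (0.122), RMA late 1 (0.131) or RMA late 2 (0.0976), and it was 0.0596 at 0.67 when the libraries low in immediate early genes were left out of the fit and 0.147 at 0.68 with only these groups in it. Beside Ccr2, the 22 immediate early genes had a median of -0.51, edgeR called Fosb lower, and Fos measured 1319, 1771 and 1369 CPM in RMA early and 475, 403 and 649 CPM in RMA late. Their part in the Ccr2 result was not tested. S1pr1 stood at -1.17 (SE 0.50, p 0.0279, adjusted p 0.232) and Cxcr6 at -2.80 (SE 1.79, adjusted p 0.431). Across the 7 receptors the median was -0.53 beside -0.05 for all genes, and 3 of 7 receptors, Ccr2, S1pr1 and Cxcr6, and 3262 genes had no overlap.

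From day 2 to day 14 with RMA-KR, Ccr2 was again higher in every late library than in every early library. Cxcr3 was lower on average. For RMA-KR late against RMA-KR early the edgeR test called 0 of 7, with 2 at unadjusted p < 0.05 and 0 by DESeq2, where 0.322% of all tested genes were called and 0.392% passed the adjusted p alone. Ccr2 stood at 0.45 (SE 0.17, p 0.0145, adjusted p 0.267) and Cxcr3 at -0.64 (SE 0.29, p 0.0412, adjusted p 0.324). Beside Ccr2, the 6 macrophage and monocyte markers tested had a median of -1.28, with 0 called higher and 1 lower. Their part in this result was not tested. Ccr7 stood at 4.22 (SE 2.72, adjusted p 0.468), from 1 early and 2 late libraries above 0. The median of the receptors was 0.45 beside -0.10 for all genes, and 1 of 7 receptors, Ccr2, and 2652 genes had no overlap. Ccr2 passed the adjusted p with RMA and not with RMA-KR, and the difference between these changes was not tested.

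Klf2, whose product switches on S1pr1, was low in both late groups, and its fall was called with RMA. Klf2 measured 254, 219, 187 and 157 CPM in control, 85.2, 93.9 and 97.1 CPM in RMA late and 103, 104 and 99.8 CPM in RMA-KR late. In RMA late Klf2 fell, with -1.15 (SE 0.26, adjusted p 0.0126) against control and -1.11 (SE 0.27, adjusted p 0.0265) against RMA early, and in RMA-KR late it stood at -1.0 (adjusted p 0.0532) against control and -1.04 (adjusted p 0.089) against RMA-KR early. DESeq2 gave adjusted p of 0.0115 and 0.0113 for these RMA-KR values, at -0.99 and -1.08. The call against control was lost without RMA late 1 (adjusted p 0.105), RMA late 2 (0.0935) or control 1 (0.0527), and the call against RMA early without RMA early 1 (0.154) or RMA late 1 (0.153), 2 (0.126) or 3 (0.0511), or with only these groups in the fit (0.114). With the libraries low in immediate early genes left out Klf2 stood at -1.25 (adjusted p 0.00349) in RMA late against control and at -1.07 (adjusted p 0.0121) in RMA-KR late against control. Cd69, whose product opposes S1PR1 at the surface, measured 502, 190, 417 and 60.4 CPM in control, 567, 459 and 503 CPM in RMA late and 615, 334 and 706 CPM in RMA-KR late. It stood at 0.80 (SE 0.50, adjusted p 0.499) in RMA late and 0.92 (SE 0.50, adjusted p 0.39) in RMA-KR late against control, and at 0.47 and 0.62 without the libraries low in immediate early genes.

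S1pr5, the receptor by which NK cells leave bone marrow and lymph nodes, was lower late with either tumor, though short of the adjusted p. S1pr5 measured 507, 777, 523 and 758 CPM in control, 249, 288 and 334 CPM in RMA late and 141, 378 and 390 CPM in RMA-KR late. S1pr5 stood at -1.15 (SE 0.32, adjusted p 0.0573) in RMA late and -1.08 (SE 0.32, adjusted p 0.114) in RMA-KR late, and DESeq2 gave adjusted p of 0.0135 and 0.0457. Without the libraries low in immediate early genes S1pr5 stood at -1.04 (adjusted p 0.114) and -0.95 (adjusted p 0.22). In the same comparisons S1pr1 stood at -1.47 and -0.77 and S1pr4 at -0.02 and -0.23, and edgeR called none of them. Tbx21, whose product supports S1pr5, stood at 0.03 (SE 0.19, adjusted p 0.972) in RMA intermediate, -0.45 (SE 0.19, adjusted p 0.276) in RMA late and -0.74 (SE 0.19, adjusted p 0.0569) in RMA-KR late against control, the last at -0.61 without those libraries. Zeb2, which also supports S1pr5, stood at -0.90 (SE 0.37, adjusted p 0.259), -0.75 (SE 0.36, adjusted p 0.358) and -0.78 (SE 0.36, adjusted p 0.341) in the same groups, and at -1.03 (adjusted p 0.0327) in RMA intermediate without the libraries low in immediate early genes. S1pr5 itself stood at -0.81 (adjusted p 0.234) in RMA intermediate. S1pr3 did not pass the filter. Of the 2 sphingosine 1-phosphate receptors besides S1pr1 and S1pr4 that could be tested, edgeR called 0 in every comparison.

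Rgs16 encodes a protein that dampens signals of chemokine receptors such as CXCR4. It measured 37.3, 16.5, 23.4 and 2.95 CPM in control, 45.2, 49.4 and 56.4 CPM in RMA intermediate, 55.1, 51 and 58 CPM in RMA late and 137, 135 and 118 CPM in RMA-KR late, so each of these tumor groups lay above every control library. Against control Rgs16 stood at 1.34 (SE 0.64, adjusted p 0.312) in RMA intermediate and 1.46 (SE 0.64, adjusted p 0.307) in RMA late, and in RMA-KR late it rose by 2.71 (SE 0.66, adjusted p 0.0414). The call in RMA-KR late was lost without RMA-KR late 1 (adjusted p 0.103), 2 (0.077) or 3 (0.0583) or control 2 (0.132), 3 (0.107) or 4 (0.108), with only these groups in the fit (0.0827), with a block for the replicate number (0.0874), and without the libraries low in immediate early genes (0.0919, at 2.37). Cxcr4 stood at -0.04 (SE 0.48) in the same comparison.

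**Figure D4:**
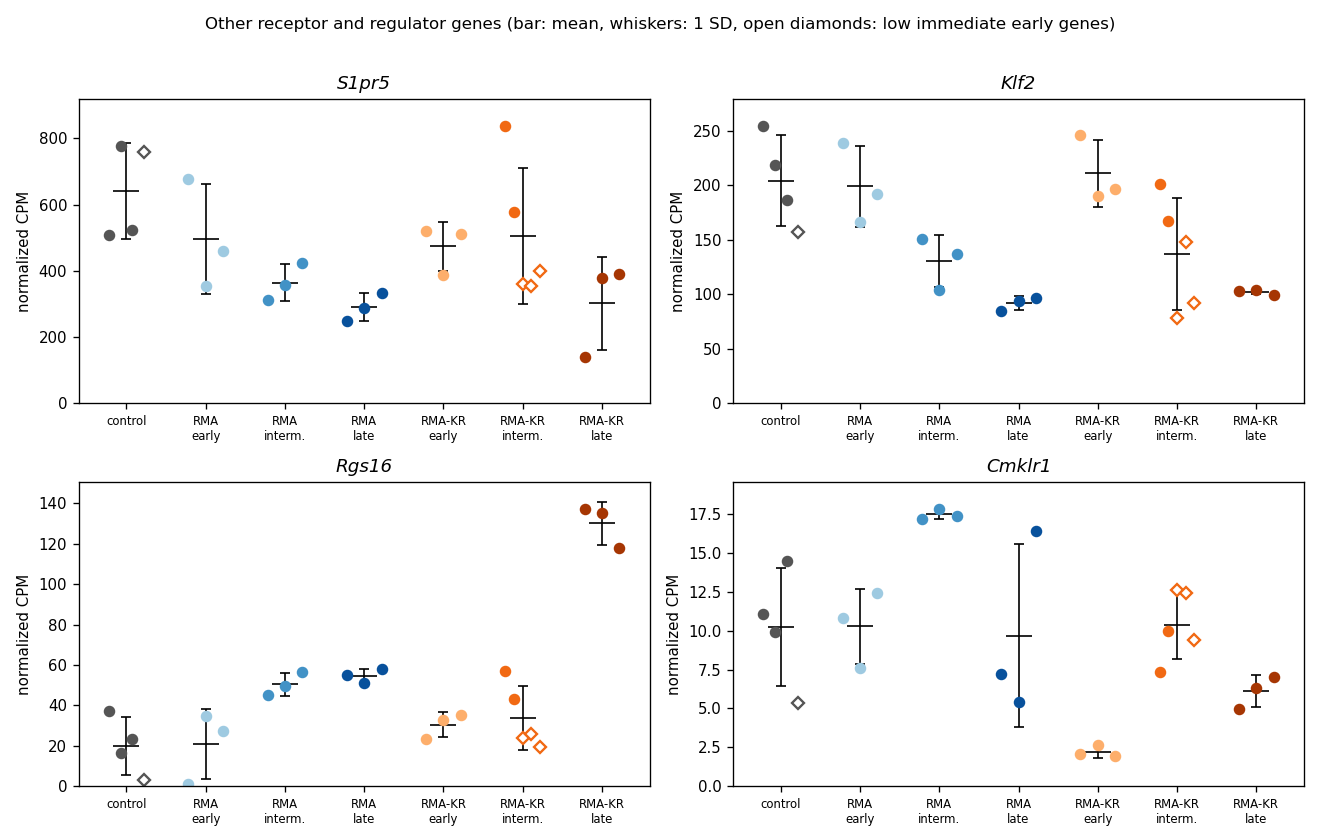
Normalized CPM of S1pr5, Klf2, Rgs16 and Cmklr1 in the 24 libraries, one symbol per library, with the group mean as a bar, 1 SD as whiskers and open diamonds for libraries low in immediate early genes. Klf2 lies between 85.2 and 104 CPM in the late groups and between 157 and 254 CPM in control, and Rgs16 reaches 118 to 137 CPM in RMA-KR late.

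Other parts of the same system gave few calls. Of 20 chemokine receptors besides Cxcr3, Cxcr6, Cxcr4, Ccr2 and Ccr7, 13 could be tested and edgeR called 0 in any comparison. DESeq2 called Cmklr1 in 3 comparisons, with Ccr9 and Xcr1 beside it in RMA-KR late against RMA-KR early at its default settings. Among those with a group mean of at least 5 CPM, Cmklr1 had the lowest adjusted p, in RMA early against RMA-KR early, at 2.21 (SE 0.56, adjusted p 0.0984) in edgeR with an adjusted p of 5.62e-05 in DESeq2. Cmklr1 measured 10.8, 7.63 and 12.4 CPM in RMA early, 2.04, 2.68 and 1.93 CPM in RMA-KR early and 11.1, 9.93, 14.5 and 5.36 CPM in control. For RMA-KR early against control it stood at -2.2 (SE 0.54, adjusted p 0.14) in edgeR and -2.16 (adjusted p 6.55e-05) in DESeq2, and for RMA-KR late against RMA-KR early at 1.46 (SE 0.55, adjusted p 0.262) in edgeR and 1.43 (adjusted p 0.0308) in DESeq2. Cx3cr1 stood at 0.86 (adjusted p 0.363) in RMA intermediate against control, Ccrl2 at 0.73 (SE 0.56, adjusted p 0.564) in RMA-KR late against RMA-KR early, and S1pr2 at -0.98 (SE 0.46, adjusted p 0.344) in RMA-KR late against control. Of 10 chemokine ligand genes tested, with Ccl5 the most abundant at a mean of 3521 CPM, edgeR called 0, and the same held for 7 genes of sphingosine 1-phosphate metabolism and transport, 24 of G-protein signalling and 12 of adhesion. DESeq2 at its default settings called Ccl9 and Cxcl10 among the ligands, Sgpp1 among the metabolic genes, and 0 of the G-protein and adhesion genes. Among 9 regulators of these receptors only Klf2 and Rgs16 were called by either tool. By edgeR, of 14 NK cell defining markers 1 was called higher and 1 lower in RMA intermediate against control and again against RMA-KR intermediate, and 1 higher in RMA late against control. Of 10 mature NK cell markers 1 was called higher in RMA intermediate, 2 higher and 1 lower in RMA late and 1 lower in RMA-KR late, each against control, and 1 lower in RMA-KR late against RMA-KR early. Of 11 immature NK cell markers 1 was called lower in RMA-KR late against control and 1 higher in RMA late against RMA early. Of 10 dendritic cell markers 1 was called higher in RMA intermediate against control and against RMA-KR intermediate and 1 in RMA late against control. Among all tested genes the shares called were 1.65% in RMA intermediate, 1.79% in RMA late and 0.983% in RMA-KR late against control, 0.503% between the intermediate groups, and 2.01% with RMA and 0.322% with RMA-KR from early to late. These markers move beside Ccr2, S1pr1 and Cxcr3, and their part in the result was not tested.

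These are transcript levels of whole sorted populations, so protein at the cell surface and the location of the cells were not measured. Estimated fold changes above 2 in Cxcr3, S1pr1, Cxcr4, Cxcr6 and Ccr7 were not called in the main edgeR fit, and the cause was not tested. Without a filter edgeR called 1 receptor in RMA intermediate and 2 in RMA late against control, and 3 between the intermediate groups. A missing call therefore does not show that a receptor was unchanged.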

How the data were processed

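The values are counts per gene as deposited by the authors, 24 libraries and 45237 genes, with the gene length by the authors used for levels per kilobase. The other 48 per-library columns of that table of 112 columns were not used. According to the authors, viable NK cells (among other markers CD3-, CD5-, TCRab-, TCRgd-, NKp46+ or NK1.1+) were sorted after negative depletion, RNA was purified with Direct-zol, libraries were made with the Lexogen mRNA-seq V2 kit and read on a HiSeq as single reads of 50 bases. They trimmed with cutadapt 1.10, removed ribosomal reads with Bowtie2 2.2.8, aligned with STAR 2.5.3a and counted with HTSeq 0.6.1p1 on Ensembl 96, whose gene positions for these receptors were checked against GENCODE vM21 on GRCm38.

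Tests used edgeR 4.0.16 (TMM, filterByExpr over the 7 groups, robust quasi-likelihood fit with 1 mean per group) in R 4.3.3 with limma 3.58.1. The filter kept 17097 genes, 37.8% of the table, with a common biological coefficient of variation of 0.852. A gene was called at a BH-adjusted p below 0.05 over all tested genes and a fold above 2. The adjusted p values in the text are from this model unless DESeq2 is named. Fold changes are log2, and 3 counts or fewer were taken as not told from 0. The members and the gene lists were chosen with earlier results of these data known.

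The alternatives tried were DESeq2 1.42.0 with default settings and with betaPrior=TRUE, DESeq2 size factors in edgeR, a stricter filter (10 counts or more in all libraries) and none, a fit of only the 2 groups compared, immediate early genes as a covariate, a block for the replicate number, leaving out each library in turn, and Spearman in place of Pearson correlation. Leaving out control 4 and RMA-KR intermediate 3, 4 and 5 was added after seeing the data. Genes named beside the members are every called gene of the receptor lists, the sphingosine 1-phosphate receptors, other chemokine receptors with a group mean of at least 5 CPM, Klf2, Cd69, Zeb2 and Tbx21, the most abundant gene of each marker list, and the 3 genes most similar to each member. Genes named outside this rule are Fos and those a list gave at 5 calls or fewer. Similar genes had a mean of at least 10 CPM. Promoters are from RefSeq on GRCm38.p6, searched on both strands.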

Additional observations from a re-analysis of the deposited data

How the results depend on the processing

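Of 77 member values in 11 comparisons, 51 kept their sign under every alternative run for them and 26 did not, and 1 turned with DESeq2 size factors. Cxcr6 and Ccr7, with few counts, were not tested when at least 10 counts were required in every library, and Ccr7 did not pass the filter of the fit of only the 2 groups in RMA early against RMA-KR early and in either late against early comparison. The cause was not tested. By Spearman correlation the most similar gene became Birc2 for Cxcr4 (0.718), Nop53 for Ccr2 (0.844) and Zfyve1 for S1pr4 (0.698), and it was unchanged for the other 4 members.

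Members called rose from 0 to 1 in RMA intermediate against control without a filter, to 1 in RMA late against control with DESeq2 in both forms and 2 without a filter, and to 1 in RMA intermediate against RMA-KR intermediate with DESeq2 in both forms or at least 10 counts and 3 without a filter. Members past the adjusted p alone moved the same way, and went from 1 to 0 in RMA-KR late against control with the libraries low in immediate early genes left out, with only the 2 groups or with the replicate block, and to 0 in RMA late against RMA early with the first 2 of these, each with a range of 0 to 1 when 1 library was left out.

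With the immediate early covariate the sign turned for Cxcr3 in RMA late against RMA-KR late (-0.0012), for Cxcr6 in RMA early (0.49), RMA-KR intermediate (-0.11) and RMA-KR late (1.35), and for Ccr7 in RMA-KR intermediate (-0.26), each against control unless named. With the libraries low in immediate early genes left out it turned for Cxcr3 in RMA-KR intermediate (-0.05), Cxcr6 in RMA early (0.97), RMA-KR intermediate (-1.37) and RMA-KR late (0.81), Ccr7 in RMA early (0.37) and RMA-KR intermediate (-0.13), S1pr1 in RMA early (0.12) and S1pr4 in RMA intermediate against RMA-KR intermediate (-0.05). Ccr7 in RMA early turned with DESeq2 and with its size factors (0.03 each), S1pr4 in RMA late with only the 2 groups (0.03) and S1pr4 in RMA early against RMA-KR early without a filter (-0.02). The labels do not say whether replicate numbers pair samples. The 64 same-number pairs had a median deviation r of -0.00711 (-0.118 to 0.202) against 0.0028 for other numbers. A median over all groups cannot show whether some groups are paired. The replicate block turned Cxcr6 in RMA early (2.37) and RMA-KR late (0.27) and S1pr1 in RMA early (0.07).

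With 1 library left out the log2 fold change against control ran from -0.04 to 0.65 for Cxcr4 in RMA early, -0.41 to 0.14 in RMA late and -0.88 to 0.37 in RMA-KR late. It ran from -0.56 to 0.93 for Cxcr6 in RMA early and -4.05 to 0.74 in RMA-KR late, from -7.96 to 0.58 for Ccr7 in RMA early, -0.22 to 1.00 in RMA-KR intermediate and -0.36 to 1.07 in RMA-KR late, from -0.89 to 0.09 for S1pr1 in RMA early and from -0.09 to 0.14 for S1pr4 in RMA late. Between early groups it ran from -0.35 to 0.09 for Cxcr3, -4.19 to 7.91 for Ccr7, -0.21 to 0.67 for S1pr1 and -0.08 to 0.11 for S1pr4, and between intermediate groups from -0.32 to 0.03 for Cxcr4. Between late groups it ran from -0.06 to 0.34 for Cxcr3, -0.54 to 0.67 for Cxcr4 and -3.21 to 1.1 for Cxcr6. In RMA-KR late against RMA-KR early it ran from -0.35 to 0.89 for Cxcr4, -2.75 to 1.72 for Cxcr6, -0.50 to 0.34 for S1pr1 and -0.11 to 0.12 for S1pr4, and in RMA late against RMA early from -7.90 to 6.36 for Ccr7.

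Genes called among all tested ranged over the alternatives, leaving out 1 library included, from 0 to 88 in RMA early, 0 to 147 in RMA-KR early, 166 to 762 in RMA intermediate, 0 to 56 in RMA-KR intermediate, 127 to 624 in RMA late and 71 to 483 in RMA-KR late, each against control. They ranged from 0 to 338, 34 to 340 and 0 to 56 between the tumors at the early, intermediate and late stage, from 1 to 972 in RMA late against RMA early and from 2 to 498 in RMA-KR late against RMA-KR early.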

Other observations

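S1pr3, which NK cells carry little of, was found in few libraries and did not pass the low-count filter. It measured 31.5 CPM in RMA early 2 and 10.5 CPM in RMA-KR early 2, then 0.63 CPM in RMA late 3, 0.264 CPM in RMA early 3 and 0.196 CPM in RMA-KR intermediate 5, and 0 in every other library. S1pr2, its relative, was lowest in RMA early 2, at 7.84 CPM against 65 and 72.7 CPM in RMA early 1 and 3.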
